A study of Mus musculus with 6 samples.

Results

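A set of 9 genes whose spliced RNAs carry small nucleolar RNAs (snoRNAs) in their introns, and whose exons encode no known protein, were examined in cultured mouse cells with and without metformin. The genes are Gas5, Snhg1, Snhg3, Snhg5, Snhg6, Snhg8, Snhg12, Zfas1 and Epb41l4aos. They were listed by name, with earlier results of these data known, and all 9 were found among the 55401 genes of the deposited table and passed the filter, an average of 1 FPKM or more (fragments scaled by exon length and by library depth), as did 10661 genes in all. RNA-seq was performed on cultures labelled as female germline stem cells (FGSCs) of strain C57BL/6, at passage over 20 and grown on STO feeders, a line of mouse embryo fibroblasts. The control group was 3 untreated libraries, and the metformin group was 3 libraries from cultures that received 1 μM metformin for 24 h. Both groups shared the same medium, with leukemia inhibitory factor, EGF, bFGF and GDNF. The study's methods say that experiments were repeated, but neither they nor the labels say whether the libraries of a group came from separate cultures, so the p-values measure the spread between these libraries, which may be technical.

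A snoRNA host gene is transcribed, spliced and trimmed. The intron is processed into snoRNAs, which guide methylation (box C/D type) or pseudouridylation (box H/ACA type) of ribosomal RNA, and the joined exons are exported. Host RNAs of this kind often begin with a run of pyrimidines, the 5′ terminal oligopyrimidine (5′ TOP) feature of ribosomal protein mRNAs, and ribosomes that load on their short reading frames stop early. The exons are then removed by nonsense-mediated decay (NMD), which needs translation, so these RNAs are known to accumulate when translation is blocked. The comparison asked whether the 9 host RNAs differed with metformin, a drug that acts on mitochondrial respiration and that can start the ATF4 stress response.

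The sequence at the start of the host genes is shown because it is the part tied to translation. RefSeq (GRCm38.p6) gave a start for 7 of the 9 genes, and none was given here for Snhg6 and Epb41l4aos. Each line holds 25 bases before the start and 25 from the start onward, read 5′ to 3′ on the strand of the gene. Capitals mark the longest run of C and T that begins with C within 10 bases of the start, where that run has at least 5 letters.

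Gas5, upstream start, chr1:161034576-161034625, plus strand: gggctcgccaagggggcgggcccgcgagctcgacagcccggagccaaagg
Gas5, downstream start, chr1:161035141-161035190, plus strand: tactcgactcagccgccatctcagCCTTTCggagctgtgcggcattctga
Snhg1, chr19:8723462-8723511, plus strand: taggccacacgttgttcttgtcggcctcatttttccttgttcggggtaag
Snhg3, chr4:132353662-132353711, minus strand: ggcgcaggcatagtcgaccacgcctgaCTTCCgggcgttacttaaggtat
Snhg5, chr9:88522873-88522922, minus strand: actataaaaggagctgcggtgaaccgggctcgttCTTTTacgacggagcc
Snhg8, chr3:123508312-123508361, minus strand: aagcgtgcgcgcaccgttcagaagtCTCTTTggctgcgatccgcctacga
Snhg12, chr4:132308653-132308702, plus strand: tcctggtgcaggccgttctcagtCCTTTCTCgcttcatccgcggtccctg
Zfas1, chr2:167062909-167062958, plus strand: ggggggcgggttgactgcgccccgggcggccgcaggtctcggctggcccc

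Such a run was found at a start of 5 of the 7 genes and at 5 of their 8 starts (62.5%), against 29.0% of all 32851 RefSeq starts in the same table. The longest was the 8 letters of Snhg12, followed by 6 letters in Snhg8 and at the downstream start of Gas5. In Snhg1 the C and T letters at the start are broken by an A after 4 letters, and the start of Zfas1 had a run of 4. Annotated starts can lie a few bases from the true one, so the letters describe these windows only. Protein-coding snoRNA hosts had the run at 7 of 26 starts (26.9%). Of the 34 such hosts, 22 are ribosomal protein genes, whose mRNAs carry the 5′ TOP feature. The run as defined here is therefore not a measure of that feature. Starts on chromosome 18 were left out of the host shares but kept in the share of all starts.

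Depth was inferred from short genes with a single exon, whose FPKM values fell on whole multiples of 1 fragment, and came to 13400000 to 14000000 fragments per library. A value of 0.0714 to 0.0746 FPKM stood for 1 fragment per kb, so the host genes were read with 187 to 785 fragments per kb of exon in each library. Of all tested genes, 3 passed an adjusted p of 0.05, all of them higher with metformin. Defining markers of germ cells were at or near 0. Of 11 germ cell markers 6 were listed at 0 in every library (Dazl, Pou5f1, Dppa3, Nanos3, Tfap2c and Mael), and the summed FPKM of the list was 1.00 to 1.75 in the control group and 0.83 to 1.43 with metformin. The 13 markers of blood and mast cells summed to 881 to 907 FPKM in the control group and 855 to 881 with metformin, with Fcer1a alone listed at 0. Ms4a2 and Cd52 were also low, at 0.51 to 1.19 and 0.37 to 1.27 FPKM over all libraries, and 10 of the 13 were tested. Cpa3, a mast cell protease and the highest of the 13, made up much of the sum. It had 356, 386 and 357 FPKM in the control group and 348, 330 and 336 with metformin, and Ptprc and Lcp1 were likewise lower in every metformin library. Vav1, Coro1a and Laptm5 were higher in every metformin library. The log2 differences were -0.11 for Cpa3, 0.10 for Vav1 and 0.05 for Coro1a (adjusted p = 0.369, 0.346 and 0.471 from limma). The 11 fibroblast markers, which would show the feeders, summed to 1.39 to 1.56 and 1.16 to 1.85 FPKM, with Lum alone listed at 0. The part of any of these cell types in the results was not tested.

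Most of the host RNAs were slightly lower in the metformin group. The log2 difference was below 0 for 8 of the 9 genes and the median over the 9 was -0.12, against a median of 0.0041 over all tested genes. For 5 genes (Gas5, Snhg1, Snhg5, Snhg6 and Snhg12) every metformin library was below every control library, whereas 8.1% of all tested genes did not overlap in this direction. Epb41l4aos was the only member with every metformin library above every control library, against 8.89% of all tested genes. At an unadjusted p under 0.05 the same 5 genes were lower, beside 4.81% of all genes, and Epb41l4aos was higher, beside 6.03%. None of the 9 passed an adjusted p of 0.05 over all tested genes (limma with Benjamini-Hochberg adjustment), a threshold that 0.0281% of all genes passed, and the adjusted p of the members ranged from 0.320 to 0.929. In bulk libraries like these, fewer cells of a type and less RNA per cell cannot be told apart. The counts over the members are a description.

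**Figure D1:**
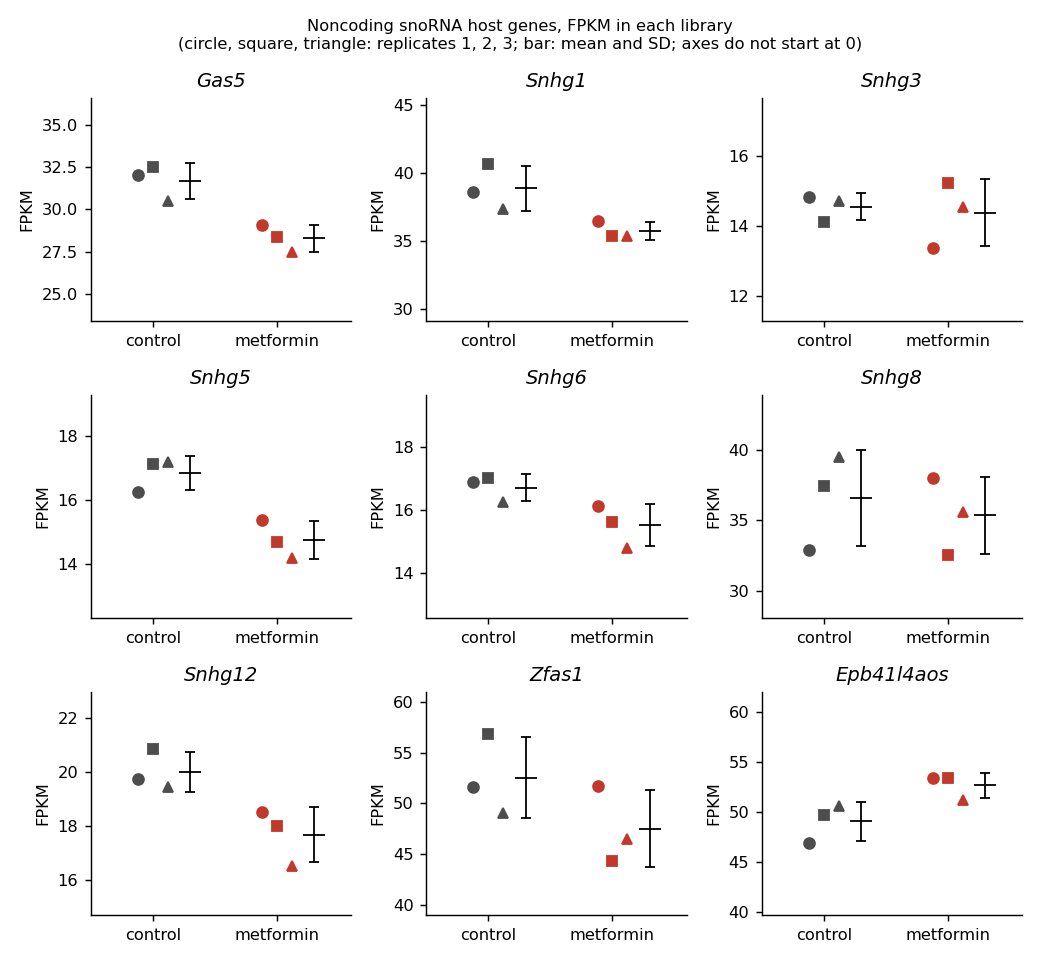
FPKM of each host gene (vertical axes, which do not start at 0) in the 3 control libraries (grey) and the 3 metformin libraries (red), with the mean and SD of each group beside the points. The metformin points of Gas5, Snhg1, Snhg5, Snhg6 and Snhg12 lie below all control points, those of Epb41l4aos lie above them, and the groups overlap for Snhg3, Snhg8 and Zfas1.

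Gas5, named for its accumulation in growth-arrested cells, hosts a row of box C/D snoRNAs. Its GRCm38 position is chromosome 1, 161034422 to 161038539, plus strand. Its FPKM was 32.02, 32.52 and 30.47 in control replicates 1 to 3 and 29.05, 28.34 and 27.46 in metformin replicates 1 to 3. The lowest control library was thus above the highest metformin library. The means were 31.7 ± 1.07 and 28.3 ± 0.797 (SD, n = 3 each), or 0.893 times the control level. On the scale of log2(FPKM + 1) the difference was -0.16 (standard error 0.04, 95% interval -0.24 to -0.08, adjusted p = 0.320 from limma), and it ranked 84 by p among all tested genes.

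Snhg1 hosts box C/D snoRNAs of the Snord22 and Snord25 to Snord31 group and spans 8723475 to 8726443 of chromosome 19 (plus strand), with its start next to that of Slc3a2. Control replicates 1 to 3 had 38.62, 40.67 and 37.38 FPKM, and metformin replicates 1 to 3 had 36.50, 35.36 and 35.41. The groups did not overlap, with a gap of less than 1 FPKM between them. The log2 difference was -0.12 (standard error 0.04, 95% interval -0.20 to -0.03, adjusted p = 0.363 from limma).

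Snhg5, the host of the Snord50 snoRNAs, spans 88495268 to 88523562 of chromosome 9 (minus strand) and had the largest difference of the 9. FPKM was 16.24, 17.13 and 17.18 in the control libraries and 15.37, 14.69 and 14.19 in the metformin libraries. All metformin values were below all control values. The ratio of the group means was 0.875, a log2 difference of -0.18 (standard error 0.04, 95% interval -0.28 to -0.09, adjusted p = 0.320 from limma).

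Snhg6, the host of Snord87, spans 9941959 to 9944118 of chromosome 1 (minus strand). Its values were 16.86, 17.01 and 16.23 FPKM in the control group and 16.10, 15.61 and 14.79 in the metformin group. The groups were only just apart, with metformin replicate 1 directly below control replicate 3. The log2 difference was -0.10 (standard error 0.04, 95% interval -0.19 to -0.01, adjusted p = 0.426 from limma). With each library left out in turn it was -0.13 to -0.07.

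Zfas1, which begins beside Znfx1 on the opposite strand and hosts the Snord12 family, spans 167062934 to 167065862 of chromosome 2 (plus strand). It had 51.64, 56.88 and 49.09 FPKM in control replicates 1 to 3 and 51.69, 44.31 and 46.53 in metformin replicates 1 to 3. Metformin replicate 1 lay among the control libraries, so the groups overlapped. Its spread within groups was larger than that of 80.6% of tested genes, and its log2 difference of -0.14 had a standard error of 0.07 and an interval from -0.30 to 0.02 (adjusted p = 0.506 from limma). It was -0.08 without control replicate 2, -0.09 without metformin replicate 2 and -0.20 without metformin replicate 1.

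Snhg12, which hosts box H/ACA snoRNAs and Snord99, spans 132308623 to 132311024 of chromosome 4 (plus strand). Control replicates 1 to 3 had 19.75, 20.85 and 19.44 FPKM and metformin replicates 1 to 3 had 18.51, 18.02 and 16.53. The groups were separate. The ratio of the means was 0.884 and the log2 difference -0.17 (standard error 0.05, 95% interval -0.28 to -0.06, adjusted p = 0.350 from limma).

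Snhg3, the host of the Snora73 pair (U17, needed for ribosomal RNA processing), spans 132348014 to 132353686 of the same chromosome (minus strand). FPKM values were 14.83, 14.11 and 14.72 in the control group and 13.37, 15.24 and 14.55 in the metformin group. Metformin replicates held both the lowest and the highest value. The log2 difference was -0.02 with an interval from -0.13 to 0.10 (standard error 0.05, adjusted p = 0.929 from limma), and it was 0.03 when metformin replicate 1 was left out. Snhg3 shares 5592 bp with Rcc1 on the same strand and 1611 bp with Gm17300 on the opposite strand, at means of 60.2 and 16.0 FPKM in the control group, so fragments could be divided between these genes.

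Snhg8, which hosts Snora24, spans 123507552 to 123508404 of chromosome 3 (minus strand). Values of 32.88, 37.47 and 39.49 FPKM in the control group and 38.01, 32.55 and 35.59 in the metformin group overlapped throughout. It had the widest spread within groups of the 9, larger than that of 84.3% of tested genes. The log2 difference of -0.05 had a standard error of 0.08 and an interval from -0.23 to 0.13 (adjusted p = 0.866 from limma), and it was above 0 when control replicate 3 (0.0085) or metformin replicate 2 (0.01) was left out.

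Epb41l4aos is a short host gene at 33794892 to 33795986 of chromosome 18 (plus strand). Control replicates 1 to 3 had 46.84, 49.72 and 50.56 FPKM, and metformin replicates 1 to 3 had 53.35, 53.42 and 51.22. Here the lowest metformin library was above the highest control library. The means were 49.0 ± 1.95 and 52.7 ± 1.25 (SD, n = 3 each), a log2 difference of 0.10 (standard error 0.03, 95% interval 0.02 to 0.18, adjusted p = 0.390 from limma).

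**Figure D2:**
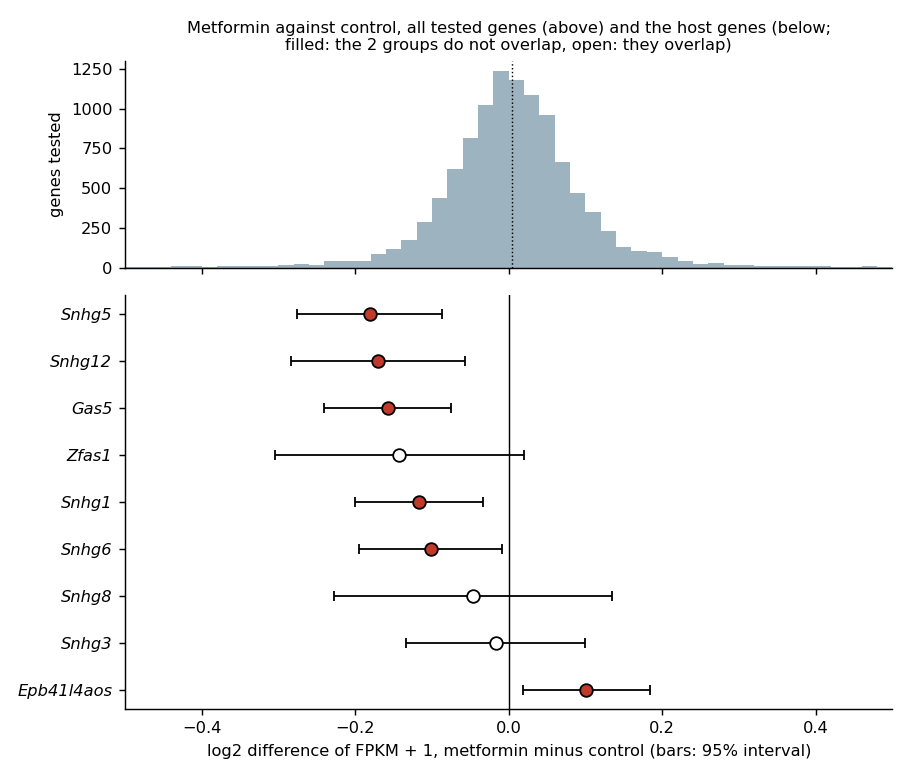
Top, number of tested genes at each log2 difference, metformin minus control, with their median dotted (genes beyond 0.5 in size lie outside the axis). Bottom, the 9 host genes on the same axis, with 95% intervals and filled points where the groups do not overlap. The intervals of Gas5, Snhg1, Snhg5, Snhg6 and Snhg12 end below 0 and that of Epb41l4aos begins above it.

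In each of the 6 genes without overlap the exact two-sided permutation test gave p = 0.1, the smallest that 3 libraries against 3 allow. The intervals above are not adjusted for the number of genes. Within the metformin group replicate 1 was the highest of the group for 7 of the 9 genes and replicate 3 the lowest for 5, and the number of members below the control mean was 7, 7 and 8 in replicates 1 to 3. Within the control group replicate 2 was the highest for 5 genes and above the control mean for 8, and replicate 3 was the lowest for 5. Whether the members follow 1 library together was not tested. Summed over the 9 genes, FPKM was 270, 286 and 275 in the control libraries and 272, 258 and 256 in the metformin libraries, so metformin replicate 1 lay within the control range. The groups therefore overlapped in this sum. Without Epb41l4aos the sum was 223, 237 and 224 in control replicates 1 to 3. It was 219, 204 and 205 in metformin replicates 1 to 3, below all control libraries. Epb41l4aos was the only member higher in every metformin library. This gap therefore depends on leaving it out, a choice made from the same values, and is not further support.

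By level per length in the control group the genes can be set out in 3 tiers, for description only. The borders of the tiers were not tested, and levels of different genes also depend on exon lengths, which were not checked here. Zfas1 and Epb41l4aos stood at 52.5 ± 3.97 and 49.0 ± 1.95 FPKM and did not differ beyond their spread. Snhg1, Snhg8 and Gas5 followed at 38.9 ± 1.66, 36.6 ± 3.39 and 31.7 ± 1.07 FPKM, where Snhg8 overlapped with Snhg1. Snhg12, Snhg5, Snhg6 and Snhg3 were lowest, at 20.0 ± 0.741, 16.9 ± 0.529, 16.7 ± 0.414 and 14.6 ± 0.388 FPKM (SD, n = 3 each), with Snhg5 and Snhg6 overlapping. Both tiers below the top held genes that were lower in all metformin libraries.

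Mature snoRNAs have no poly(A) tail, which mRNA kits select for. The table held 33 snoRNA genes inside the 9 spans, a few of them the same snoRNA annotated under 2 identifiers, and 29 were listed at 0 in all libraries. These included all 10 in Gas5, all 8 in Snhg1 and all 5 in Snhg12. Snora73a of Snhg3, Snord87 of Snhg6 and the snoRNA of Epb41l4aos had at most 3 fragments in any library. The exception was a copy of SNORD12 in Zfas1, on chromosome 2 from 167064998 to 167065086, with 60.35, 46.41 and 57.05 FPKM in the control group and 65.65, 61.91 and 56.98 with metformin. These values correspond to 57 to 82 fragments on a gene of 89 bp. This entry was read with 640 to 919 fragments per kb, and Zfas1 itself with 620 to 785. The other 2 snoRNA genes in Zfas1 were at 0 in all libraries. Fragments of the host RNA and of the mature snoRNA cannot be told apart here. The groups of this entry overlapped. Its log2 difference of 0.18 (standard error 0.10, adjusted p = 0.551 from limma) had the opposite sign to that of its host, a contrast that was not tested.

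Snhg1 and Zfas1 start beside a gene on the opposite strand, and other host genes overlap or lie near a neighbour. The largest contrast among the 6 pairs given here was between Snhg1 and Slc3a2, which are 105 bp apart. Slc3a2 encodes the heavy chain of amino acid transporters and is known as an ATF4 target. Its FPKM was 94.41, 99.23 and 100.19 in control replicates 1 to 3 and 110.80, 111.17 and 109.65 in metformin replicates 1 to 3, higher in every metformin library (log2 difference 0.17, standard error 0.03, adjusted p = 0.244 from limma). The log2 ratio of Snhg1 to Slc3a2 within a library, each as FPKM + 1, was -1.31 ± 0.0760 in the control group and -1.60 ± 0.0247 with metformin (SD, n = 3 each, exact two-sided permutation test, p = 0.1, the smallest possible). Snhg1 was lower and Slc3a2 higher in every metformin library, so their ratio had to separate. Its p-value therefore adds nothing to the values of the 2 genes. Ratios of the other 5 pairs of host and neighbour overlapped between the groups. They paired Snhg12 with Trnau1ap, Zfas1 with Znfx1, and Snhg3 with Rcc1, Phactr4 and Gm17300, and their differences ranged from -0.18 to 0.07.

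**Figure D3:**
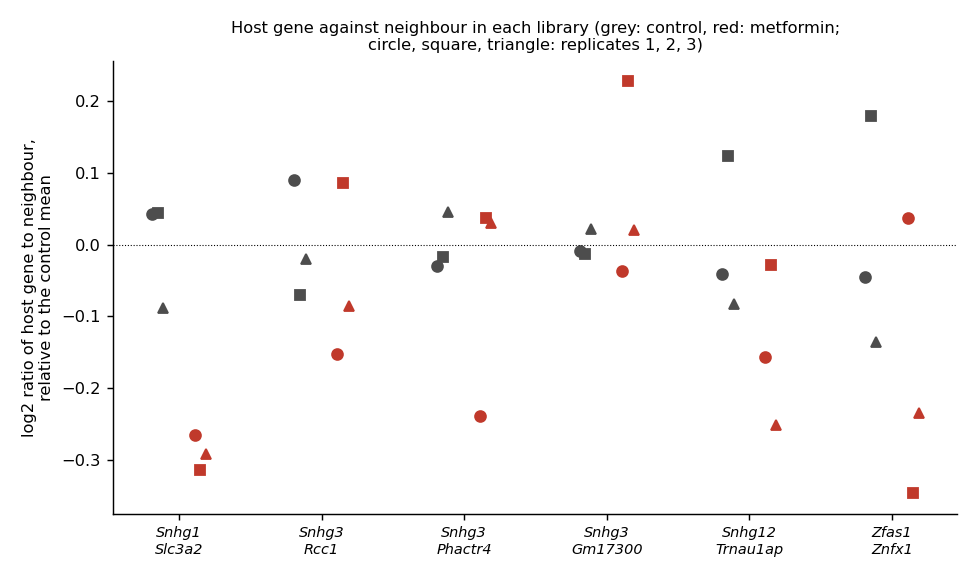
Log2 ratio of a host gene to a neighbouring gene in each library, relative to the mean of the control libraries, for 6 pairs within 5 kb in which the neighbour averaged 1 FPKM or more. The red metformin points lie below all grey control points for Snhg1 with Slc3a2, as they must where each gene separates in opposite directions. The colours mix in the other pairs.

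Other noncoding snoRNA hosts overlapped between the groups, with values on both sides of 0. Of 12 listed, 9 were matched to an entry and 6 were tested (Snhg10, Snhg15, Snhg16, Snhg17, Snhg20 and Dancr). Snhg9, Snhg11 and Snhg18 were listed at 0 in all libraries. The entry matched to Snhg18 spans only 32241853 to 32241923 of chromosome 15, about the length of a single snoRNA. Its 0 therefore does not describe the spliced host RNA. The median log2 difference of the 6 was 0.02, with 4 above and 2 below 0, none at an unadjusted p under 0.05 and none without overlap. Dancr, with 19.9 ± 1.23 and 18.3 ± 1.12 FPKM (SD, n = 3 each), had a log2 difference of -0.11 and Snhg20 one of 0.12, while Snhg17 had 0.06 (adjusted p = 0.524, 0.556 and 0.627 from limma). The difference between this list and the 9 genes was not tested.

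Protein-coding hosts, mostly genes for ribosomal proteins and translation factors, had 21 genes below 0 and 13 above it. All 34 were tested, with a median log2 difference of -0.0028, 7 lower and 4 higher at an unadjusted p under 0.05, beside 4.81% and 6.03% of all tested genes. Likewise 7 were lower and 4 higher without overlap, beside 8.1% and 8.89% of all tested genes. The smallest p-values belonged to Eif4a2, an RNA helicase of translation initiation, Taf1d, a factor of RNA polymerase I, and Rpl10, a protein of the large ribosomal subunit. Eif4a2 had 71.37, 74.73 and 72.33 FPKM in the control group and 66.39, 63.57 and 65.75 with metformin, a log2 difference of -0.16 (adjusted p = 0.283 from limma). Taf1d had 19.65, 18.73 and 18.66 against 17.33, 15.70 and 16.03 FPKM, a log2 difference of -0.21 (adjusted p = 0.301 from limma), larger than that of any of the 9 noncoding hosts. Rpl10 had a log2 difference of -0.13 (adjusted p = 0.320 from limma). The metformin libraries of all 3 genes were below all control libraries. The 22 ribosomal protein genes of the list had a median of -0.0023 and the other 12 genes one of -0.03.

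Proteins of snoRNA particles and factors of their assembly showed no common direction. Some of these genes, such as Dkc1, are also in the list of protein-coding hosts. The 16 genes had a median log2 difference of -0.01, 8 above and 8 below 0. At an unadjusted p under 0.05, 2 were higher and 1 lower, beside 6.03% and 4.81% of all tested genes. Dkc1, the pseudouridine synthase of box H/ACA particles, had a log2 difference of -0.06, Pih1d1, an assembly factor, 0.09, and Fbl, the methyltransferase of box C/D particles, 0.05 (adjusted p = 0.421, 0.430 and 0.455 from limma).

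NMD factors had values on both sides of 0. Of 21 genes for NMD factors and the exon junction complex 20 were tested, with a median log2 difference of -0.01. At an unadjusted p under 0.05, 2 were higher and 1 lower, beside 6.03% and 4.81% of all tested genes. Eif4a3, which anchors the exon junction complex, had 99.7 ± 1.39 and 105 ± 0.705 FPKM (SD, n = 3 each), a log2 difference of 0.07 (adjusted p = 0.357 from limma). Smg1, the kinase of Upf1, had one of -0.11 and Smg9, its partner, one of 0.12 (adjusted p = 0.377 and 0.423 from limma). Among 11 genes for RNA decay the median was -0.04, with 9 below 0. They encode decapping factors, exonucleases and the ribosome rescue factors Pelo and Hbs1l. Ddx6, a helicase that helps decapping, was lower in every metformin library (log2 difference -0.11, adjusted p = 0.300 from limma), whereas Xrn2 had -0.06 and Pelo 0.19 with groups that overlapped.

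Of the protein-coding RNAs known to be lowered by NMD, 11 were above 0 and 4 below it. The list held 17 genes, 8 of them NMD factors that are themselves targets, and 15 were tested, with a median log2 difference of 0.03 and 5 higher and 1 lower at an unadjusted p under 0.05 (6.03% and 4.81% of all tested genes). Among the 7 tested genes outside the machinery the median was 0.18, the value of Atf4 itself, and 4 were higher without overlap (8.89% of all tested genes). These were Atf4, Ddit3, Chac1 and Gadd45a. The groups overlapped for Gadd45b, Tbl2 and Cdkn1a, with log2 differences of 0.03, -0.00025 and 0.04. The median therefore does not describe a common rise of RNAs lowered by NMD. The list was not compared with the 9 hosts by a test. Ddit3, which encodes CHOP, and Chac1, a glutathione-degrading enzyme, rose by 0.74 and 1.18 on the log2 scale (adjusted p = 0.00453 and 0.00197 from limma). Atf4, which encodes their activator, had 200.29, 207.40 and 202.93 FPKM in the control group and 238.02, 232.99 and 221.80 with metformin, a log2 difference of 0.18 (adjusted p = 0.244 from limma). In the same libraries no member of the 9 hosts passed the adjusted threshold in either direction. Only 3 of all tested genes passed it, so this does not show that the hosts were unchanged. Ddit3 and Chac1 are also known targets of ATF4, and their rise was already known when the list was chosen. Translation and decay were not measured in these libraries.

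**Figure D4:**
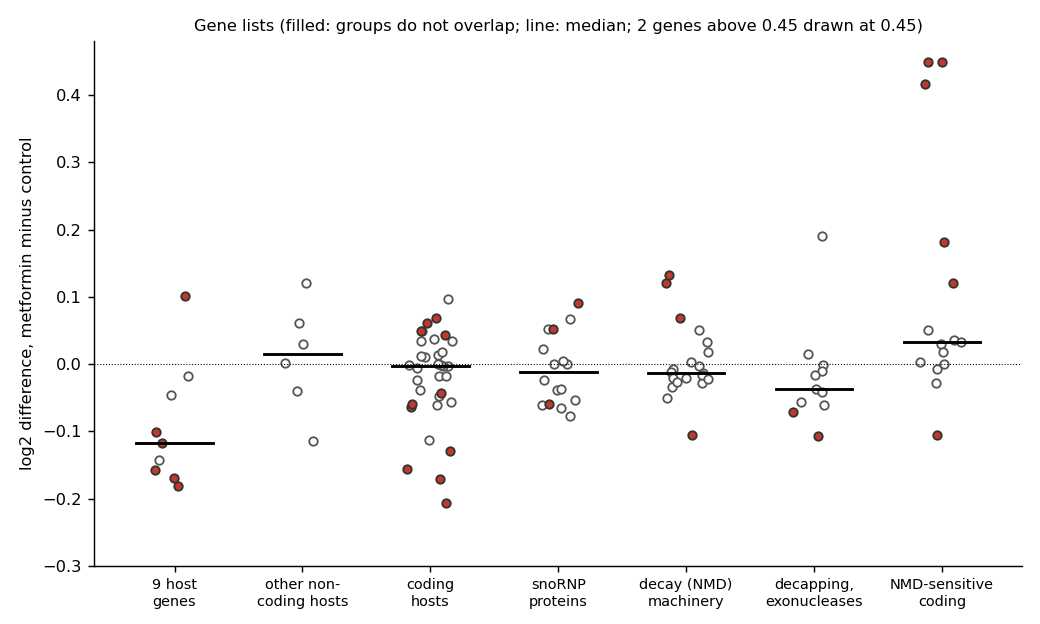
Log2 difference, metformin minus control, of each tested gene in the 7 gene lists, with the median of each list as a line and filled points where the groups do not overlap. Ddit3 (0.74) and Chac1 (1.18) are drawn at the upper limit set for the points, not at their values. The line of the 9 host genes lies at -0.12 and those of the other lists lie between -0.04 and 0.03.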

How the data were processed

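The authors deposited FPKM values, rounded to 2 decimals, for 55401 Ensembl genes in 6 libraries, with 1 column per library and replicates not pooled. The submitters' processing notes name HISAT2, DESeq2 and mm9, whereas 99.5% of 23270 genes overlap their GRCm38.p6 RefSeq position and 1.12% of 32589 genes have the same position in the NCBIM37 (mm9) annotation. The counter, the gene set and the use of strand are not given in the sources used here. The labels name a stranded kit and the methods of the study another mRNA kit.

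Of the members, 3 were matched by Ensembl identifier, 2 by older symbol and 4 (Snhg1, Snhg5, Snhg6 and Snhg8) by covering at least 0.9 of the RefSeq gene. The members and gene lists were chosen with earlier results of these data known. Values were tested as log2(FPKM + 1) for the 10661 genes averaging 1 FPKM or more, which understates changes of low genes, with limma 3.58.1 (R 4.3.3, lmFit and eBayes with a trend, two-sided, Benjamini-Hochberg, threshold 0.05), without a replicate block. The fit was tested on simulated data. Named genes were the 9 members, genes within 5 kb of them, and in each list the genes past the threshold, filled up to 3 by the smallest p. One of these genes is not reported here. Depth was not stated, was estimated from single-exon genes under 400 bp (100% of values within 0.1 of a whole fragment), and bears on counting error only. No per-sample column was left out. Exonic lengths were not used, so counts of fragments were not rebuilt and no count test was run. Figures were drawn with matplotlib 3.10.9.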

Additional observations from a re-analysis of the deposited data

How the results depend on the processing

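Alternatives were a pseudocount of 0.1, no filter, a mean of at least 10 FPKM, TPM, quantile normalization, median centring, no trend, a replicate block, each library left out, and, chosen after seeing the data, each gene's own spread. In all 15 settings no member passed the adjusted threshold, with adjusted p from 0.204 to 0.990 (limma), and the median of all genes moved by at most 0.0055. Gas5, Snhg1, Snhg5 and Snhg12 stayed below 0 with an unadjusted p under 0.05 in all 15. Snhg6 did so in 10, and Epb41l4aos stayed above 0 in 15 with such a p in 11. The number of members lower at that threshold was 4 with each gene's own spread, 4 to 6 with a library left out (6 without control replicate 3 or metformin replicate 1, otherwise 4) and 5 in the other settings. The number of members higher at that threshold was 0 with each gene's own spread, and 0 to 1 with a library left out (0 without control replicate 1, metformin replicate 1 or metformin replicate 2). Snhg3 turned to 0.0313 without metformin replicate 1, with a range of -0.0569 to 0.0313. Snhg8 turned to 0.0085 and 0.0104 without control replicate 3 and metformin replicate 2, with a range of -0.12 to 0.0104. Of all genes, 3 were called lower without the filter and 0 to 1 with a library left out. The cause of these shifts was not tested.

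The deviations of same-numbered libraries from their group means had a correlation of -0.03 to 0.05 across genes. With 3 libraries per group this cannot decide whether they were handled together, and no source says so. With the replicate block Gas5 had a log2 difference of -0.16 (adjusted p = 0.408, limma), and no call on a member changed. Coverage of the members went from 187 fragments per kb in a library for Snhg3 to 785 for Zfas1.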
